A study of Mus musculus with 2 samples.

Results

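Promoter chromatin was examined at the nuclear genes for subunits of the mitochondrial respiratory chain and ATP synthase in mouse hippocampal tissue. The genes were taken by symbol from the protein-coding genes of GENCODE M21 on the mm10 (GRCm38) genome. Symbols starting with Ndufa, Ndufb, Ndufc, Ndufs or Ndufv and a digit were counted under complex I, Sdha to Sdhd under complex II, and Uqcr under complex III. Symbols starting with Cox4 to Cox8 and a letter were counted under complex IV, and Atp5 under ATP synthase. This gave 84 of 21911 genes on chromosomes 1 to 19, X and Y, of which 37 stood under complex I, 4 under complex II, 8 under complex III, 18 under complex IV and 17 under ATP synthase. Subunits encoded in mitochondrial DNA and the assembly factors listed further below are outside this choice. It goes by symbol alone, so a gene in it need not encode a structural subunit. Ndufa4 stands under complex I by its symbol, although its protein is now placed in complex IV.

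DNase-seq, which reads out where the nuclease DNase I can reach and cut the DNA, was run on 1 group of samples. They were male B6CASTF1/J mice, hybrids of C57BL/6 and CAST/EiJ, aged 14 days, with no treatment or mutation named. The tissue was labelled a layer of hippocampus, with the layer not named, and there were 2 biological replicates. A pool of 3 males is named for each, under 1 donor identifier that both share, so the spread between replicates may be technical. With 1 group there is no contrast over samples, and the results are counts, shares and values with no test.

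The respiratory chain passes electrons from NADH (complex I) and succinate (complex II) through complex III to oxygen at complex IV, and complexes I, III and IV pump protons out of the mitochondrial matrix. ATP synthase lets the protons back through its membrane ring and uses the turn to make ATP. Neurons depend on this pathway to restore ion gradients after firing. Most subunits are needed in every cell type, whereas a few complex IV subunits have second genes known for muscle, testis or lung.

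A peak is an open stretch called by the authors in 1 library, and its value is theirs, with no stated unit or normalization. Replicate 1 had 115072 peaks and 285181 footprints, which are short protected stretches inside open chromatin, and replicate 2 had 95711 and 244137. Promoters were windows reaching 1000 bp to each side of every annotated start site of a gene, and the value of a promoter was that of its highest peak in each replicate. All 8 forebrain neuron markers had a promoter peak in both replicates, as did 2 of 4 astrocyte and 1 of 2 microglia markers. None of the 2 liver, 3 striated muscle, 6 testis germ cell and 2 hindbrain markers had one in either replicate. The tissue is a mixture of cells, so fewer cells with an open site and less cutting per cell cannot be told apart.

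Nearly all respiratory chain and ATP synthase promoters were open. A promoter peak was present in both replicates at 78 of the 84 genes (92.9%), against 62.6% of all protein-coding genes, and the other 6 had one in neither. Of the genes, 8 are called restricted isoforms here: 7 second genes of complex IV subunits, known for muscle, testis or lung, and Ndufa4l2, known for induction by hypoxia and not for a tissue. All 76 other genes had a peak in both, and the 6 without were Cox4i2, Cox6a2, Cox7b2, Cox8b, Cox8c and Ndufa4l2. The median value over the 78 open promoters was 3.63 in replicate 1 and 4.48 in replicate 2. Over all 13721 protein-coding genes with a peak in both, it was 2.54 in replicate 1 and 3.20 in replicate 2. Above the 75th percentile of all genes with a promoter peak lay 41.0% of the 78 genes in replicate 1 and 44.9% in replicate 2. For scale, 81 of 85 cytosolic ribosomal protein genes (95.3%) and 78 of 78 mitochondrial ribosomal protein genes had a peak in both. Their medians were 4.13 and 3.26 in replicate 1 and 5.10 and 4.10 in replicate 2, so the medians of the respiratory chain and ATP synthase genes lay between those of these 2 lists.

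**Figure D1:**
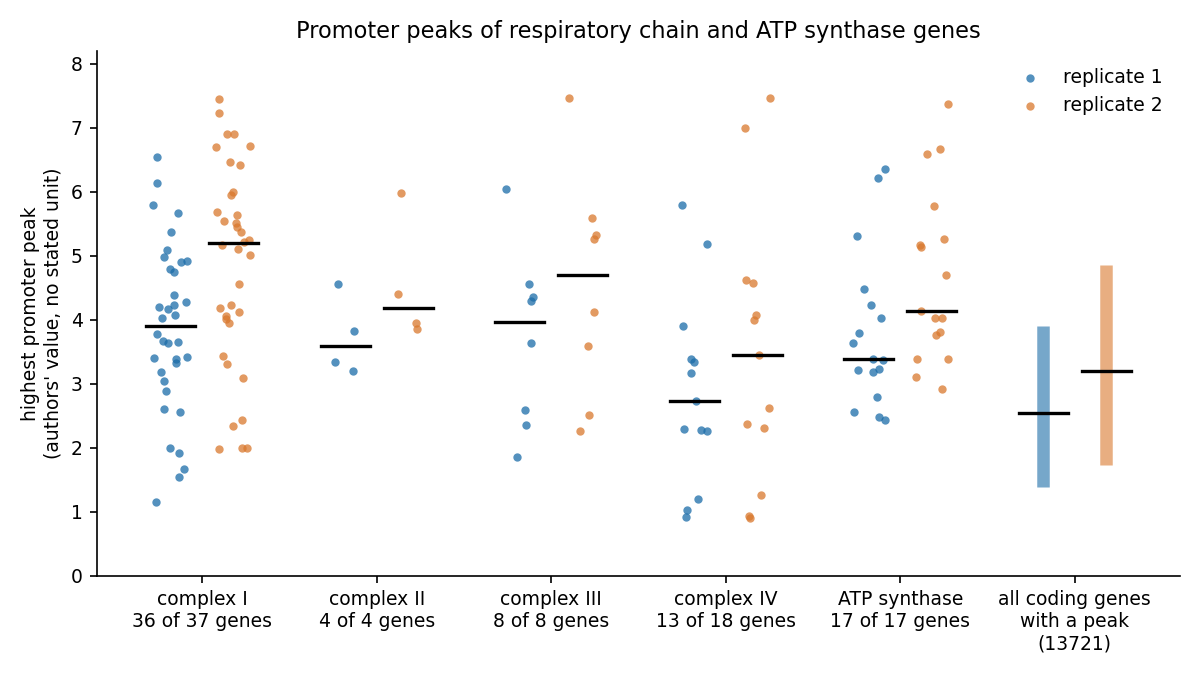
Highest promoter peak per gene (authors' value, no stated unit) for each complex and replicate. Points are genes with a peak, black lines are medians, and the bars on the right span the 25th to 75th percentile of all 13721 coding genes with a peak in both replicates. The complex I medians were 3.90 and 5.19 in replicates 1 and 2, above the all-gene medians of 2.54 and 3.20, and complex IV lay closest to them at 2.72 and 3.44.

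Complex I, the entry point for electrons from NADH, had a promoter peak in both replicates at 36 of 37 genes. For this and each complex below, the share over all protein-coding genes was 62.6%. The median value of complex I was 3.90 in replicate 1 and 5.19 in replicate 2. The 7 core subunits, which carry the flavin, the iron-sulfur clusters and the quinone site, had medians of 4.28 and 5.25. The 30 accessory genes had medians of 3.78 and 5.16 over the 29 with a peak. The highest promoter of all 84 genes by mean of the replicates was that of Ndufs7, which encodes the core subunit with the last iron-sulfur cluster before quinone. Ndufs7 (chromosome 10, 80249121 as the start site used) stood at 6.53 in replicate 1 and 7.44 in replicate 2. Its peak also overlapped 2 nuclear tRNA genes, for phenylalanine and asparagine, as annotated by RefSeq. A tRNA gene overlapped the highest promoter peaks of both replicates at 1 of the 78 genes (1.28%), against 17 of 13721 protein-coding genes (0.124%). How much of the Ndufs7 value belongs to the tRNA genes was not tested.

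Next in complex I came Ndufa13 at 6.14 and 7.23 in replicates 1 and 2, Ndufb7 at 5.78 and 6.69, and Ndufa8 at 5.37 and 6.91, all accessory subunits. The Ndufa13 peak was centred at -753 bp from the start, in a window shared with Tssk6 and Yjefn3. The lowest open promoters of complex I were those of Ndufa1 at 1.15 and 1.98 and Ndufb11 at 1.55 and 2.00, both accessory subunits encoded on chromosome X.

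Complex II, which oxidizes succinate and is also an enzyme of the citric acid cycle, was open at all 4 genes in both replicates. The flavoprotein gene Sdha had 4.56 in replicate 1 and 5.98 in replicate 2. The iron-sulfur subunit gene Sdhb had 3.83 and 3.86. The membrane anchor genes Sdhc and Sdhd had 3.20 and 3.95, and 3.34 and 4.40. Sdha was the highest in both replicates, and the order of the other 3 changed between the replicates.

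Complex III, which passes electrons from quinol to cytochrome c, was open at all 8 genes, with medians of 3.96 in replicate 1 and 4.69 in replicate 2. Uqcrq, a small membrane subunit, led with 6.05 and 7.47. The Rieske iron-sulfur gene Uqcrfs1 followed at 4.56 and 5.59, the hinge protein gene Uqcrh at 4.35 and 5.32, and the core protein gene Uqcrc1 at 4.29 and 5.27. The highest Uqcrh peak lay before the start site used, in a window shared with a neighbour. The Uqcrh peak over that start had 2.96 and 2.67. The lowest were the other core protein gene, Uqcrc2, at 1.85 and 2.27, and Uqcrb at 2.35 and 2.50. The genes for the 2 core proteins, which sit in the complex side by side, thus differed in promoter value in both replicates.

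Complex IV, the oxidase, was the only complex with more than 1 closed promoter. A peak in both replicates was present at 13 of 18 genes (72.2%), against 62.6% of all protein-coding genes. Without the 7 tissue-restricted isoforms of cytochrome oxidase, 11 of 11 did, with medians of 3.16 in replicate 1 and 3.99 in replicate 2. Cox6a1 had 5.78 and 6.99, Cox6c 5.18 and 7.46, Cox8a 3.90 and 4.61, and Cox5a 3.39 and 4.57. These encode structural subunits around the catalytic core, which itself is made from mitochondrial DNA. The lowest open promoters were those of the restricted isoforms Cox7a1 and Cox6b2, described with the isoform pairs.

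ATP synthase was open at all 17 genes, with medians of 3.38 in replicate 1 and 4.14 in replicate 2. The 5 genes of the catalytic F1 head had medians of 3.78 and 5.14, and the other 12 genes 3.30 and 4.03. Subunit c, which forms the rotating membrane ring, is made from 3 genes with the same mature product. Atp5g2 had 6.35 and 7.36, Atp5g1 5.31 and 5.17, and Atp5g3 3.38 and 3.76, an order that was the same in both replicates. The catalytic beta subunit gene Atp5b had 6.21 and 6.66, and Atp5mpl, for a small membrane subunit, 4.48 and 6.58. The lowest were Atp5j2, for subunit f, at 2.47 and 2.92, and Atp5j, for coupling factor 6, at 2.43 and 3.38.

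The promoter of the gene with the highest mean value of each complex is shown from 150 bases before the start site to 20 bases from it on, on the gene's strand. The sequence is the C57BL/6 reference of RefSeq GRCm38.p6, and the CAST/EiJ allele of these hybrids may differ. In Ndufs7 the capitals mark the 66 bases inside the tRNA gene. In the others they mark matches to the ETS, NRF1, YY1 or CRE letters given with the motifs. Sdha and Atp5g2 hold no such match in this window.
Ndufs7, chr10:80248971-80249140, plus strand: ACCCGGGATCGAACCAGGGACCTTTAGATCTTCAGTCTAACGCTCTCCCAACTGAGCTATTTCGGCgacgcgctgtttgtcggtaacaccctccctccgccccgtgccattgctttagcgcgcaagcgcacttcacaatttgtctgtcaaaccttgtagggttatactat
Sdha, chr13:74350261-74350430, minus strand: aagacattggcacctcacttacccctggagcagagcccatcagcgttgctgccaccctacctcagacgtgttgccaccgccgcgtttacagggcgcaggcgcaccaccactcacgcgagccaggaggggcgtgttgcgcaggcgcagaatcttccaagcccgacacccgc
Uqcrq, chr11:53430808-53430977, minus strand: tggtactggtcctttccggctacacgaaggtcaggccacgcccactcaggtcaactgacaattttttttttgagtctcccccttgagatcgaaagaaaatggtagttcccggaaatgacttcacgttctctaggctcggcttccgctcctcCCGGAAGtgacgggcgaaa
Cox6a1, chr5:115348962-115349131, minus strand: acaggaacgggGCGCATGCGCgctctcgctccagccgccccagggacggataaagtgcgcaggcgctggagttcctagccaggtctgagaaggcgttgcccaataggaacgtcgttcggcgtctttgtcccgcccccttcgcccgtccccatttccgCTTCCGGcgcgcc
Atp5g2, chr15:102671108-102671277, minus strand: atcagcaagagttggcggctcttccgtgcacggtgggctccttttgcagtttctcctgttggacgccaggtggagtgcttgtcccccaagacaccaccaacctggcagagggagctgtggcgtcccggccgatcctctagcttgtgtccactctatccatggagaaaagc

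The restricted isoform genes stood apart from their ubiquitous counterparts. A promoter peak was present in both replicates at 2 of 8 restricted genes and at 7 of 7 ubiquitous genes. Over all protein-coding genes the share was 62.6%. The heart and skeletal muscle genes Cox6a2 and Cox8b had no promoter peak, against 5.78 and 6.99 in replicates 1 and 2 for Cox6a1 and 3.90 and 4.61 for Cox8a. The testis genes Cox8c and Cox7b2 had none either, against 1.20 and 1.26 for Cox7b, a gene on chromosome X. Cox4i2, known for lung, had none, against 2.26 and 2.63 for Cox4i1. Ndufa4l2, known for induction by hypoxia, had none, against 4.20 and 5.16 for Ndufa4. These 6 promoters also held no footprint and no listed stretch of cut rate under a false discovery rate of 0.05 in either replicate.

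The 2 restricted genes with a peak had low values. Cox7a1 (chromosome 7, 30184144 to 30186078), the muscle isoform, had 0.919 in replicate 1 and 0.929 in replicate 2, against 2.72 and 3.44 for Cox7a2. Cox6b2 (chromosome 7, 4751792 to 4753094), the testis isoform, had 1.03 and 0.905, against 2.27 and 2.30 for Cox6b1. In both pairs the restricted gene was lower than its counterpart in each replicate, and the replicates did not overlap between the genes. Cox7a1 had 0 footprints in replicate 1 and 2 in replicate 2, and Cox6b2 had 6 and 3. The 3 striated muscle and 6 testis germ cell markers had no promoter peak in either replicate.

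**Figure D2:**
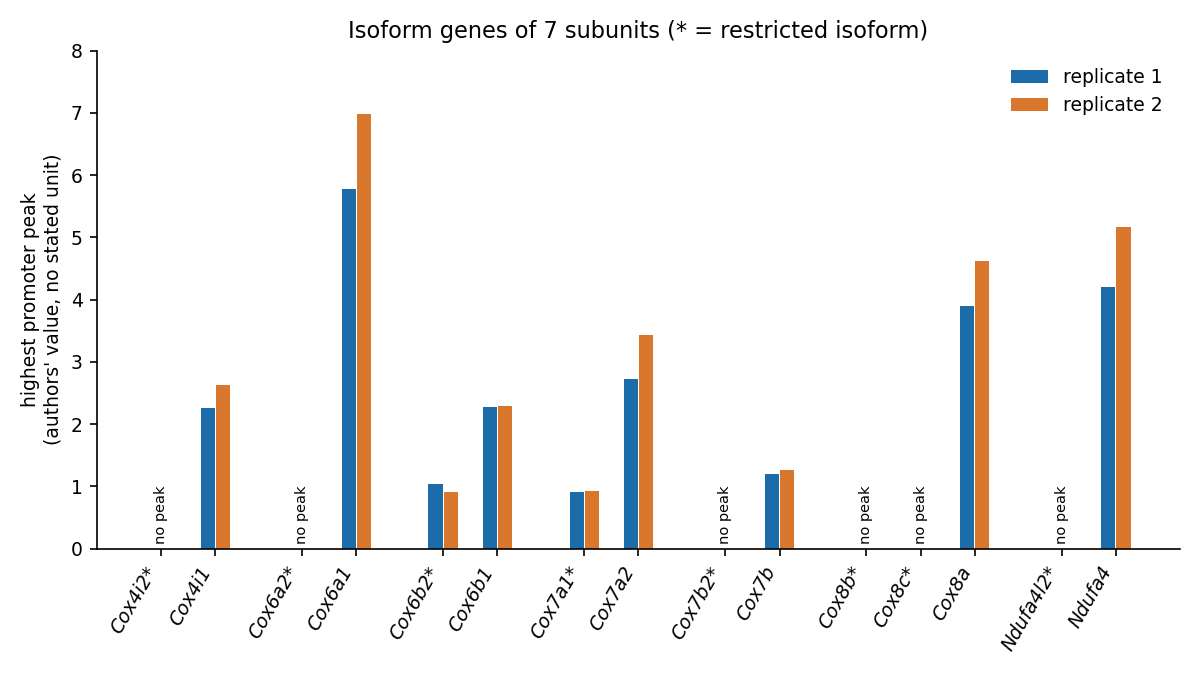
Highest promoter peak (authors' value, no stated unit) in replicates 1 and 2 for each subunit with isoform genes, restricted isoforms (asterisk; Ndufa4l2 by hypoxia, the others by tissue) to the left of their ubiquitous counterpart. Of the 8 restricted genes 6 have no peak, and Cox6b2 and Cox7a1 stand between 0.905 and 1.03, below every ubiquitous gene in the plot.

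The nearest peak to a closed promoter differed between the 6 genes. At Ndufa4l2 (chromosome 10, 127514967 to 127517154) a peak 1847 bp before the start had 4.73 in replicate 1 and 5.81 in replicate 2, against the complex I promoter medians of 3.90 and 5.19. At Cox6a2 the nearest lay 1914 bp before the start in replicate 1, with 0.714, and 1954 bp before it in replicate 2, with 0.628. At Cox8b it lay 1199 bp after the start in replicate 1, with 0.361, and 2875 bp before it in replicate 2, with 2.11. For Cox4i2, Cox8c and Cox7b2 it was 8925 to 23696 bp away. A window of 2500 bp would thus count Ndufa4l2 and Cox6a2 as open, and 4 of the 8 restricted genes in all, whereas the authors' shorter peak list has a promoter peak in both replicates at 1, Cox7a1.

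The restricted promoters were poor in CpG, the dinucleotide that is dense in most broadly used promoters. The ratio of observed to expected CpG, from 250 bases before to 50 after the start site, had a median of 0.37 over the 8 restricted genes and 0.83 over the 7 ubiquitous ones. Cox7b2 and Cox7b went the other way. The restricted Cox7b2 had 0.564 and no promoter peak, and Cox7b had 0.368 and a peak in both replicates. In the other pairs the restricted gene had the lower ratio. CpG content did not sort all the genes. Of the 21 genes with a ratio under 0.6, 15 (71.4%) had a peak in both replicates, against 32.0% of all protein-coding genes under that ratio. All 8 restricted genes were among the 21, and the 2 of 8 (25%) with a peak in both lay near the 32.0%. Of the 63 genes at 0.6 or more, 63 had one, against 94.0% of all protein-coding genes there. Ndufb10, an accessory complex I gene with a ratio of 0.35, had 4.38 and 5.45 in replicates 1 and 2. Sdhb, with 0.36, stood at 3.83 and 3.86. These 2 genes were picked after their values were seen.

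**Figure D3:**
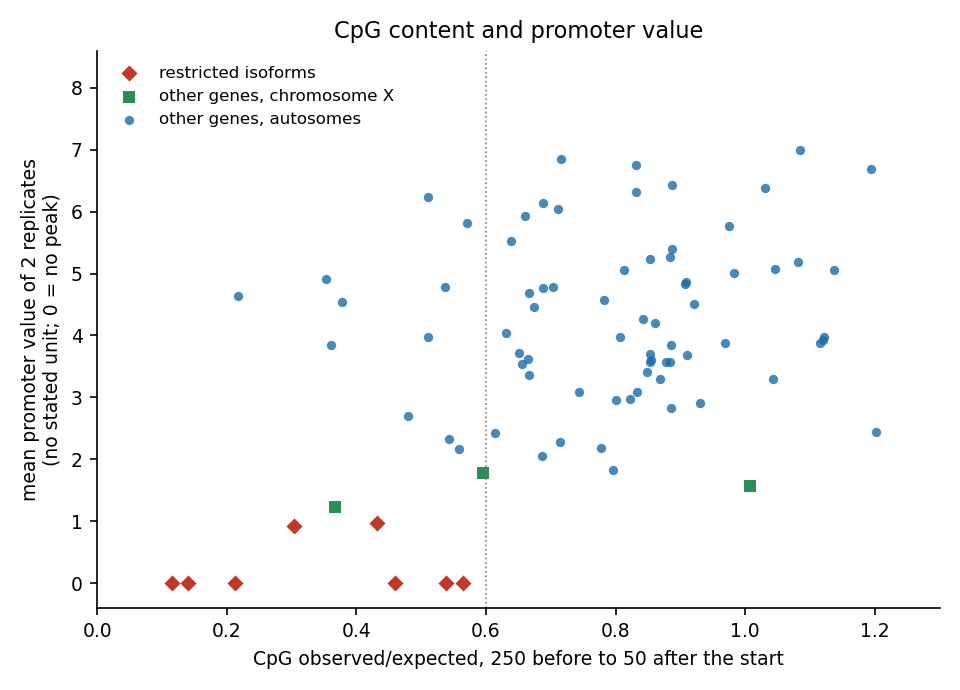
Mean promoter value of the 2 replicates (no stated unit, 0 where there is no peak) against the CpG ratio of the promoter, with the restricted isoforms as diamonds, other genes on chromosome X as squares and other autosomal genes as circles. The dotted line is at 0.6. All 8 restricted genes lie to its left, where 15 of 21 genes in all have a peak.

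The promoters of 2 of these isoform pairs are shown over the same 170 bases as above, with every CpG in capitals. The muscle genes Cox6a2 and Cox8b hold 1 CpG each, against 21 in Cox6a1 and 14 in Cox8a. The genes were picked for display after their values were seen.
Cox6a2, chr7:128206368-128206537, minus strand: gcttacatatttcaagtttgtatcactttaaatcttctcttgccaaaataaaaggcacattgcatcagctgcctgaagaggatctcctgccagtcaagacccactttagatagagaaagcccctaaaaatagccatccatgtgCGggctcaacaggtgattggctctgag
Cox6a1, chr5:115348962-115349131, minus strand: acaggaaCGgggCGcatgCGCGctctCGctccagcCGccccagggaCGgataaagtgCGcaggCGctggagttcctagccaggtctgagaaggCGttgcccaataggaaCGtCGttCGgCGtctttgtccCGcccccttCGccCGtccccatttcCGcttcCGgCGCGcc
Cox8b, chr7:140900427-140900596, minus strand: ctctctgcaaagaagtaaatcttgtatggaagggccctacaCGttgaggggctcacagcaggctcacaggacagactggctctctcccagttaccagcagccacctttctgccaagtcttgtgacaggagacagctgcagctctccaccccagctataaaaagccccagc
Cox8a, chr19:7217597-7217766, minus strand: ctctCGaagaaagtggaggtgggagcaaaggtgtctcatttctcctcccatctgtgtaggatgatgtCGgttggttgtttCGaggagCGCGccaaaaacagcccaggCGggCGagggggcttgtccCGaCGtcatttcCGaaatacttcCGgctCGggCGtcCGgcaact

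Many of these genes start close to a gene on the opposite strand. The promoter window of 27 of the 84 genes (32.1%) held a start site of another protein-coding gene, and in all 27 at least 1 of these lay on the opposite strand. Among all protein-coding genes 12.2% shared a window and 10.5% shared it with a gene on the opposite strand, while mitochondrial ribosomal protein genes were at 42.3% for any neighbour. Whether the 2 genes of a pair point away from each other was not checked, and facing means here only a start on the opposite strand. Several neighbours, picked by their known roles, also serve mitochondria or protein synthesis. Ndufb5 faced Mrpl47 and Ndufs6 faced Mrpl36, both mitochondrial ribosomal protein genes. Sdhd faced Timm8b, for a chaperone of mitochondrial import, Ndufa7 faced Rps28, and Ndufs1 faced Eef1b2. Atp5j faced Gabpa, which encodes the DNA-binding subunit of the ETS factor known to act on many respiratory chain promoters, and the pair had the same highest peak, at 2.43 and 3.38 in replicates 1 and 2. A peak in such a window cannot be assigned to 1 of the 2 genes. At Atp5f1 the highest peak, at 4.02 and 5.27, was centred 748 bp after the annotated start, in a window shared with Wdr77. The 51 open genes alone in their window had medians of 3.65 and 4.70, and the 27 sharing one had 3.35 and 4.12.

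The highest peak of replicate 1 covered the nearest annotated start site at 69 of the 78 open genes (88.5%), against 73.3% of all protein-coding genes with a peak in both. More than 1 peak lay in the window at 42.3% of the open genes in replicate 1 and 21.8% in replicate 2, against 57.3% and 52.7% of all protein-coding genes with a peak in both. The genes were also short, with a median length of 7245 bp, against 17430 bp for all protein-coding genes.

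The 3 genes on chromosome X, of which male cells hold 1 copy, were Ndufa1, Ndufb11 and Cox7b. Their promoter values had medians of 1.20 in replicate 1 and 1.98 in replicate 2, against 1.26 and 1.52 over the 459 open genes of chromosome X. All open autosomal genes had medians of 2.61 and 3.29. The X-linked Ndufa1 also showed the largest ratio between replicates, at 1.73.

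The replicates ordered the genes alike. Across the 78 open genes, which share a library within each replicate, Spearman's rho between the replicates was 0.95, against 0.98 over all 13721 protein-coding genes with a peak in both. The value in replicate 2 was higher at 75 of 78 genes (96.2%), against 92.7% of those 13721 genes. The median ratio of replicate 2 to replicate 1 was 1.24, against 1.25 for all. Beside Ndufa1, the largest ratios were those of the complex I genes Ndufs4, at 1.67 (3.39 and 5.67), and Ndufs5, at 1.47 (3.65 and 5.36). The smallest were 0.85 for Atp5l, 0.88 for Cox6b2 and 0.97 for Atp5g1. Atp5l, for subunit g of ATP synthase, was also the single gene whose highest peaks in the 2 replicates did not overlap. Its pair of neighbouring peaks stood at 3.15 and 3.63 in replicate 1 and at 3.10 and 2.61 in replicate 2, in the same order along the chromosome.

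**Figure D4:**
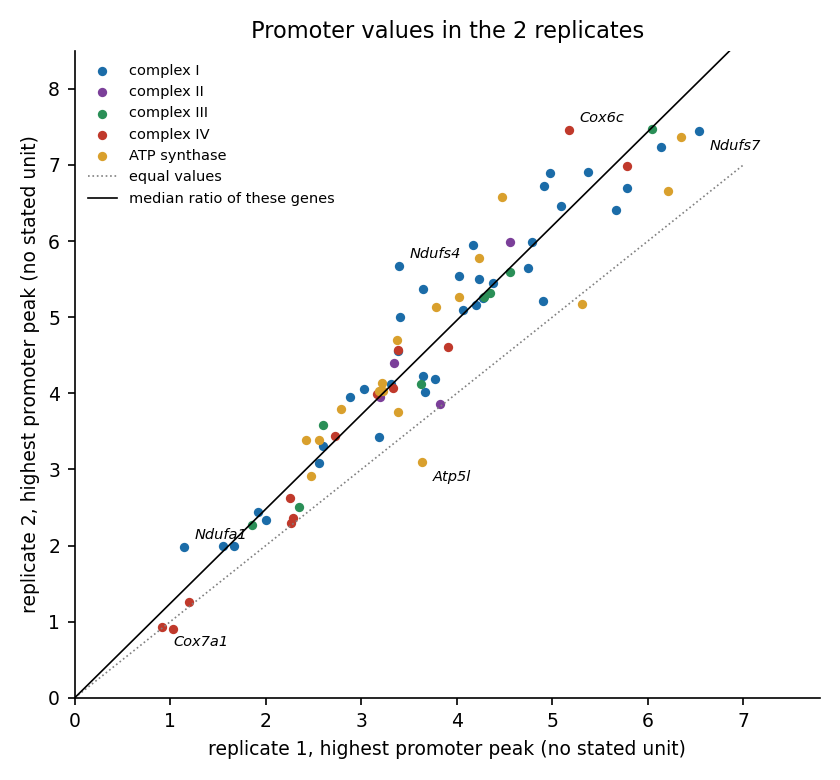
Highest promoter peak of the 78 open genes in replicate 2 against replicate 1 (authors' value, no stated unit), coloured by complex. The solid line is the median ratio of 1.24 and the dotted line equal values. Atp5l lies below the dotted line, and Ndufs4, at 3.39 and 5.67, lies far above the solid one.

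Footprints were present in both replicates at the promoters of 77 of the 84 genes (91.7%), against 61.1% of all protein-coding genes. The median number per gene was 7 in each replicate, against 4 and 5 over all protein-coding genes and 8 in each over those with a peak in both. Cox7a1 was the open gene without a footprint in both. The most were found at Ndufa11, with 14 in replicate 1 and 19 in replicate 2, Atp5j with 13 and 19, Uqcrh with 16 and 14, and Cox4i1 with 12 and 17. Atp5l had 12 and 16, and Atp5g1 15 and 13. Of these 6 genes, Ndufa11, Atp5j, Uqcrh and Cox4i1 shared their window with a neighbour.

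Promoters were searched for 10 sets of letters, on both strands, from 250 bases before to 50 after the start site. Those known for factors of this pathway were CCGGAAG for ETS factors such as GABP, GCGCATGC for NRF1, AAGATGGC for YY1 and TGACGTCA for the cyclic AMP response element (CRE). ETS letters were in 16 of the 84 promoters (19.05%), against 11.8% of all protein-coding promoters and 17.3% of those with a peak in both. NRF1 letters were in 9 (10.7%), against 4.0% and 5.3%. YY1 letters were in 9 (10.7%), against 3.3% and 4.5%. CRE letters were in 5 (6.0%), against 2.6% and 3.6%. GGGCGG, bound by SP factors, went the other way, in 36 promoters (42.9%), against 47.0% and 65.8%. CCAAT letters were in 39.3%, against 38.5% and 37.9%, the E-box CACGTG in 9.52%, against 7.90% and 10.1%, and TATAAA in 8.33%, against 11.9% and 6.36%. The ERR letters TCAAGGTCA were in 2 promoters (2.38%), against 0.383% and 0.233%, and the ZNF143 letters ACTACAATT in 1 (1.19%), against 0.575% and 0.743%. A match is a description of the letters and not a binding site.

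High shares of some of these letters were also found in the ribosomal protein lists. ETS letters were in 37.2% of mitochondrial and 36.5% of cytosolic ribosomal protein promoters, both above the respiratory chain and ATP synthase genes. NRF1 letters were in 10.3% of mitochondrial and 4.71% of cytosolic ones, YY1 letters in 14.1% and 10.6%, and CRE letters in 2.56% and 7.06%. The 4.71% for NRF1 and the 2.56% for CRE lay below all protein-coding promoters with a peak in both, at 5.3% and 3.6%.

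**Figure D5:**
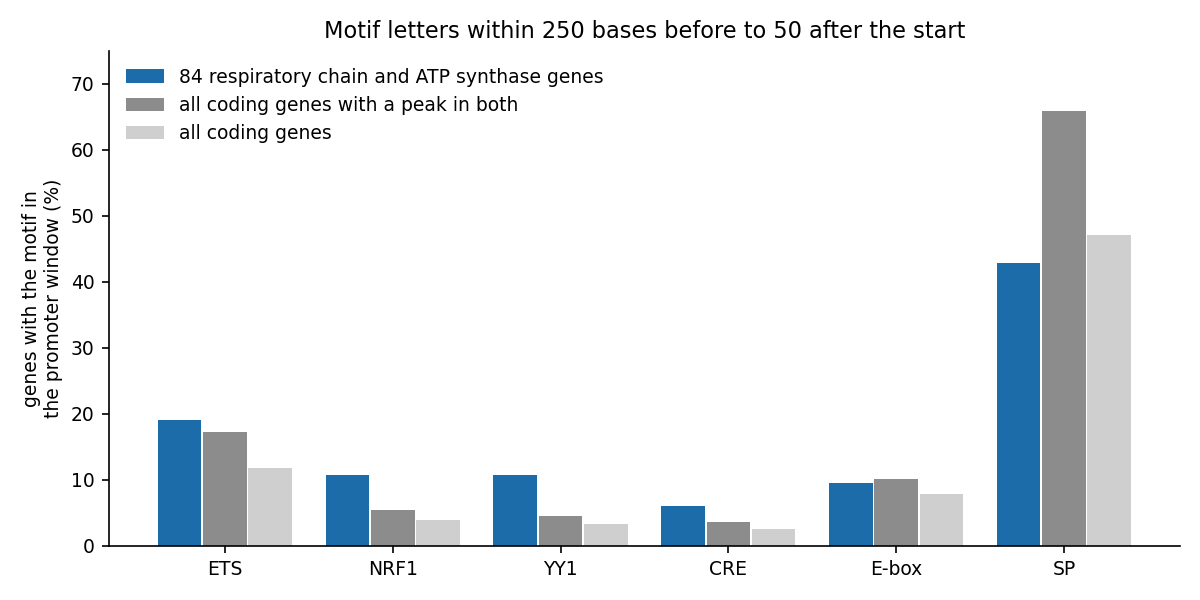
Share of promoters (%) that hold each motif's letters on either strand, for the 84 respiratory chain and ATP synthase genes, all coding genes with a peak in both replicates, and all coding genes. The respiratory chain genes are at 10.7% for NRF1 and for YY1, against 5.3% and 4.5% of coding genes with a peak, and at 42.9% against 65.8% for SP.

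NRF1 letters lay in footprints about as often here as in all promoters. Of 14 matches, which can overlap since the letters nearly mirror themselves, 9 (64.3%) lay at least 50% inside a footprint in both replicates, against 64.6% of 1239 matches over all protein-coding promoters. Among promoters with a peak in both replicates it was 9 of 13 (69.2%), against 798 of 1092 (73.1%) over protein-coding genes. The sites in footprints of both replicates lie in 6 genes from 4 complexes and ATP synthase. They are shown as 28 bases on the gene's strand with the letters in capitals.
Atp5g2, chr15:102671071-102671098, minus strand: gctccggccGCGCATGCGCagagccttc
Atp5l, chr9:44920965-44920992, minus strand: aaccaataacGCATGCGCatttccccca
Cox6a1, chr5:115349102-115349129, minus strand: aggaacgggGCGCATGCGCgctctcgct
Ndufa11, chr17:56717693-56717720, plus strand: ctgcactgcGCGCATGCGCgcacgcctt
Sdhb, chr4:140961207-140961234, plus strand: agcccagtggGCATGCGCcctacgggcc
Uqcr11, chr10:80406808-80406835, minus strand: tcgccttcacGCATGCGCtatacgtctg

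CRE letters were in footprints of both replicates in 4 of 5 promoters, against 386 of 583 matches (66.2%) over all protein-coding promoters. All 5 have a peak in both replicates, and over all such protein-coding promoters it was 386 of 507 (76.1%). The 4 promoters belong to ATP synthase, complex I and complex III genes. ETS letters were in footprints of both replicates at 3 of 19 matches (15.8%), against 16.6% of 3149. The CRE sites come first and the ETS sites after them, with the letters in capitals.
Atp5d, chr10:80141382-80141409, plus strand: ggcagggtgaTGACGTCAtgaccgagag
Ndufa10, chr1:92473808-92473835, minus strand: cactcagtggTGACGTCAtggcagcgcg
Ndufb2, chr6:39592541-39592568, plus strand: tgcgacgcagTGACGTCAcgggccggga
Uqcrfs1, chr13:30545328-30545355, minus strand: ggcgtcgcgcTGACGTCAcaaaccctgc
Cox6a1, chr5:115348958-115348985, minus strand: ccccatttccgCTTCCGGcgcgccggtg
Ndufs1, chr1:63176822-63176849, minus strand: ggcctcggctaCTTCCGGcggaactgca
Uqcrh, chr4:116075064-116075091, minus strand: agtatgccgcaCTTCCGGccaggtcgcc

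The YY1 letters sat at the start of translation. In 8 of the 9 promoters they lay on the gene's strand after the transcription start, 10 to 36 bases from it, and their ATG was an annotated start codon. Over all protein-coding promoters this held for 184 of 737 matches (24.97%). The YY1 letters thus overlapped the first codons of these 8 genes, of which 7 stand under complex I. The exception was Atp5h, with the letters at -210 bases from the start on the other strand. None of the 9 matches lay in a footprint in both replicates and 1 did in replicate 2, against 140 of 737 (18.996%) in both over all protein-coding promoters. Among promoters with a peak in both replicates it was 0 of 8, against 139 of 642 (21.7%). In a window from 500 bases before to 100 after the start, 17 of 84 genes (20.2%) held the letters, against 5.44% of all protein-coding genes. The highest peaks of replicate 1 held them at 19 of 78 (24.4%), against 5.82% of the 14147 protein-coding genes with a peak there. Strand and start codon were not checked for the matches of these 2 wider searches. Of the 8 start codons in the narrower window 6 are shown, with the letters in capitals.
Ndufa3, chr7:3617385-3617412, plus strand: cgccaagaacAAGATGGCcgggagtaag
Ndufa4l2, chr10:127514969-127514996, plus strand: acactgggacAAGATGGCaggaactagt
Ndufa9, chr6:126849098-126849125, minus strand: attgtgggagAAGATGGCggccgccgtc
Ndufb8, chr19:44555387-44555414, minus strand: ggagaaggtgAAGATGGCtgccgcccgg
Ndufs6, chr13:73328432-73328459, minus strand: ggtcaccggcAAGATGGCggcggtgctg
Sdhc, chr1:171150564-171150591, minus strand: gccggaactcAAGATGGCtgcgttcttg

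Peaks shared by the replicates, outside every promoter window and within the gene or 10 kb either side, had a median of 1 per gene, as over all protein-coding genes. At 37 of the 84 genes (44.0%) there were 0, against 41.7% of all. Among the open genes alone, 37 of 78 (47.4%) had 0, against 30.5% of the 13721 protein-coding genes with a peak in both, and the median gene length was 7370 bp, against 25890 bp. The most were at Ndufa4l2 with 8, although its promoter had no peak, Atp5d with 6, Atp5b with 5 and Atp5o with 4. A further 8 genes had 3. Gene length enters this count, and its part in the difference was not tested.

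Other genes of the pathway had open promoters as well. A promoter peak in both replicates was found at 46 of 47 assembly factor genes, against 62.6% of all protein-coding genes. Sdhaf1, for a complex II factor, was the exception. The highest were Ndufaf8 at 10.5 and 12.9 in replicates 1 and 2, in a window shared with Tepsin, Ndufaf4 at 5.40 and 7.62, and the complex IV factor Pet100 at 5.67 and 7.19. All 17 citric acid cycle genes had one, among them Ogdh, of the oxoglutarate dehydrogenase complex, at 8.01 and 9.47, and Mdh2, for malate dehydrogenase, at 5.15 and 6.21.

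Factors that act on respiratory chain genes or on mitochondrial DNA were represented by 19 genes, and in both replicates all 19 promoters were open. The share over all protein-coding genes was 62.6%. The transcription factor gene Zfp143 had 9.76 and 12.9, Polg, for the mitochondrial DNA polymerase, 7.04 and 11.3, and Esrra, for a nuclear receptor, 6.19 and 7.10. Not all 19 were high: the lowest were Esrrg at 0.403 and 0.620, Esrrb at 0.707 and 0.799, and Ppargc1a at 1.03 and 0.938. These lay near or below the values of the restricted isoforms Cox7a1 and Cox6b2. Of 11 genes for electron carriers and ATP export, 9 had a promoter peak in both replicates. The exceptions were Cyct, the testis form of cytochrome c, and Slc25a31, a testis form of the ADP/ATP carrier. The somatic cytochrome c gene Cycs had 5.33 and 7.35, and the carrier genes Slc25a4 and Slc25a3, for ADP/ATP and for phosphate, 4.999 and 6.07, and 4.14 and 5.41.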

How the data were processed

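DNase-seq peaks, footprints and cut rate stretches were called by the authors per library from 1 alignment to mm10, per the file headers and descriptions deposited with them. Which aligner and callers were used is not given in the sources used here. The authors gave each peak a signal value with no stated unit. All values were whole multiples of 1 step per library, within 0.05 of a step. The deposited p-value columns hold false discovery rates, 0.01 for every footprint and under 0.05 for cut rate stretches. The longer of the 2 peak lists per replicate was used.

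Start sites came from the GENCODE M21 basic annotation, and models with 1 symbol on 1 chromosome were merged. A peak or footprint counted if it overlapped a promoter by at least 1 bp. Motifs were searched around the start nearest the highest peak of replicate 1, or the 5′ end of the gene where there was none. Python 3.11.15, pandas 2.3.3, pysam 0.24.0 and bedtools 2.31.1 were used. The code was tested on simulated data.

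The genes and lists were chosen with earlier results of these data known. Named genes are, per complex, the 4 highest and 2 lowest open promoters, all closed promoters and isoform genes, and those at the extremes of footprints, distal peaks and replicate ratio. From each pathway list they are the 3 highest and all without a peak in both replicates. Protein sequences were not used here. Values and sequences of some genes are not reported here.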

Additional observations from a re-analysis of the deposited data

How the results depend on the processing

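Each of 20 results was recomputed under its alternatives, 152 values in all, and 141 stayed close. Close meant within 1.5 times for a count, and within the SD of the 2 replicates' medians for a median of peak values or of footprints. For peak values this SD also holds the shift between libraries, so it is a wide limit. The median ratio of replicate 2 to replicate 1 was 1.25 over all protein-coding genes with a peak in both. The footprint medians were equal, so that any shift was taken as a move. A count near its full set, such as 78 of 84, cannot rise 1.5 times and moves only with a large loss. The 141 therefore say little about such counts. The 84 genes had 77 to 80 with a promoter peak in both replicates under every setting, and 78 with either replicate left out. The restricted isoforms had 1 with the shorter peak list, which has no Cox6b2 peak in both, and 4 with a window of 2500 bp, and 2 with either replicate left out. In replicate 2 the median value was 5.15 when peaks of a window were summed. The median number of footprints was 5 in each replicate inside peaks only, and 6.5 in replicate 2 within 500 bp. YY1 letters were in 17 promoters over 500 bases before to 100 after the start and in 19 within the highest peaks. The median of distal peaks was 0 for the gene alone or with the shorter list, and 3 with 50 kb either side, the same as over all protein-coding genes. Start sites of the comprehensive annotation, an alternative chosen after seeing the data, left all 20 results close. No paired analysis was possible because there is 1 group. The values have no stated normalization, so differences between replicates may hold the scaling of a library, and 2 replicates give no test.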
